A study of Mus musculus with 10 samples.

Results

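Hepcidin and the liver genes that sense, carry, store and export iron were examined in the livers of mice given a VEGF-A adenovirus. The 10 genes, chosen by name for their roles in iron sensing, were Hamp, Hamp2, Hfe, Hfe2, Tfr2, Tmprss6, Slc40a1, Neo1, Trf and Fth1. All 10 were found among the 24016 RefSeq transcripts of the expression table, 1 transcript each was used, and all 10 were among the 13933 genes tested. RNA-Seq had been performed on ribosomal-depleted liver RNA of 10 male C57BL/6 mice, aged 8 to 12 weeks, on day 6 after tail vein injection. The AdVEGF group (5 mice) received a serotype 5 adenovirus that carries VEGF-A under the CMV promoter. The AdCMV group (5 mice) received an empty adenovirus with the promoter and without a transgene. The dose was 1.4e10 viral particles for the VEGF-A virus, and the authors' methods give no separate serotype or dose for the control virus. Both groups received an adenovirus, so that no uninfected liver entered the comparison. The CMV promoter is not specific to a cell type.

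Hepcidin is a peptide hormone that hepatocytes secrete; it binds ferroportin, the iron exporter of macrophages, enterocytes and hepatocytes, and causes its degradation, which lowers plasma iron. Its gene is driven mainly by BMP ligands from the endothelial cells of the liver sinusoids, which act through receptors, the co-receptor hemojuvelin and SMAD proteins on hepatocytes, and during inflammation by IL-6 through STAT3. HFE and transferrin receptor 2 adjust this BMP input to the iron carried by transferrin, and the protease matriptase-2 dampens it.

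The mouse has a pair of neighbouring hepcidin genes, and their promoters are shown since Hamp and Hamp2 differ in the core of the BMP-responsive element. Each sequence runs from base -250 to base -11 before the transcription start and is taken from RefSeq (GRCm38.p6, minus strand; Hamp at chr7:30944040-30944279 and Hamp2 at chr7:30924192-30924431). Capitals mark the element's core GGCGCC, or the letters aligned with it, and then the STAT motif TTCNNNGAA.
Hamp: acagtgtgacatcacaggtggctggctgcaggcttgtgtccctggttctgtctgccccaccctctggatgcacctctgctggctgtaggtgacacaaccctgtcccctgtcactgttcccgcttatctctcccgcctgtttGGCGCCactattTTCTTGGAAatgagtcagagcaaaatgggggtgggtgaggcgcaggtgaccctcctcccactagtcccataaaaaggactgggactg
Hamp2: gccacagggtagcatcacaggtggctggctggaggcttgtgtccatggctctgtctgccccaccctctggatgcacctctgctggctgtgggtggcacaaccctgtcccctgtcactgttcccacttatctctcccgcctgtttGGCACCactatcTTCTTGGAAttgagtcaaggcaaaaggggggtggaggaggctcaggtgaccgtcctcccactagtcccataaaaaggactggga
The aligned core of Hamp2 differs from that of Hamp by 1 substitution, G4A, counted from 1 at the first base of the core. The core lies at -109 to -104 in Hamp and its aligned place at -106 to -101 in Hamp2. The STAT motif has the same letters in both promoters, at -97 to -89 in Hamp and -94 to -86 in Hamp2. Over the 250 bases before the start, 227 of 247 aligned bases were identical (91.9%).

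**Figure D1:**
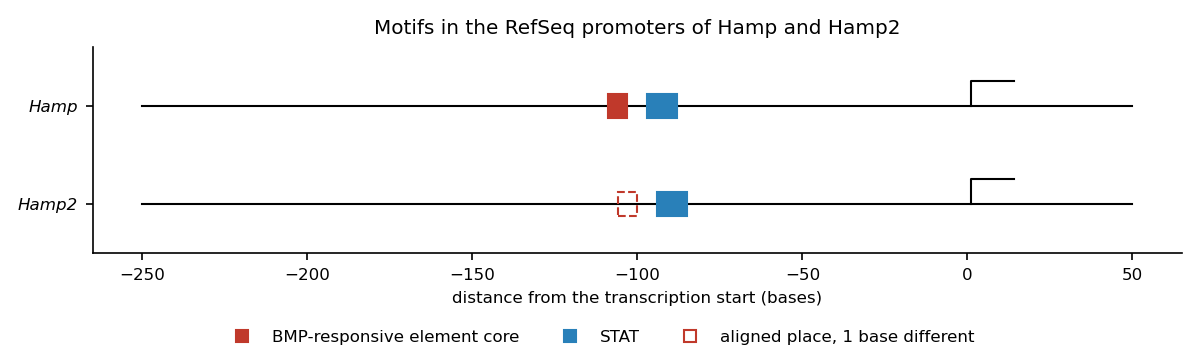
Motifs in the RefSeq promoters of Hamp and Hamp2, by distance from the transcription start in bases; filled boxes are matches and the dashed box is the place in Hamp2 that aligns with the core in Hamp and differs by 1 base. Both genes hold the STAT motif, and Hamp alone of the pair holds the core.

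Promoters of 6 of the 10 genes (Hamp, Hamp2, Hfe, Tfr2, Neo1 and Fth1) were matched in the RefSeq table, each from 250 bases before to 50 bases after a start; those of Hfe2, Tmprss6, Slc40a1 and Trf were not analysed here. Both strands were searched. The core GGCGCC was found in Hamp and Neo1 and in 11.9% of all 32851 promoters of this length. The STAT motif TTCNNNGAA was found in Hamp and Hamp2 and in 8.30% of all promoters. The core of the antioxidant response element, TGACNNNGC, was found in Hfe and in 12.4% of all promoters. The E-box CACGTG was found in none of the 6 genes and in 7.15% of all promoters. These matches describe letters and not binding.

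The values are RPKM as deposited, in which reads are divided by transcript length and by the mapped tags of the library. The mapped tags recovered from the steps of the values ranged from 5758958 to 13494004 in the AdCMV mice and from 5596565 to 8133953 in the AdVEGF mice. RPKM is a share of the library, and the 21 Mup transcripts, which encode the major urinary proteins made by hepatocytes, took unequal shares of it. In AdCMV replicates 1 to 5 they held 42.2%, 39.6%, 18.01%, 50.5% and 32.4% of the reads on transcripts, and in AdVEGF replicates 1 to 5 they held 17.0%, 17.1%, 7.84%, 11.2% and 28.6%. The share was lower in AdVEGF mice, although AdCMV replicate 3 lay within their range. Across the genes tested, log2 fold changes had a median of 0.38 on the deposited RPKM and -0.0044 after median-ratio scaling between libraries. Fold changes are therefore given under both scalings, and a change on the deposited RPKM is to be read against the shift of 0.38. A pseudocount of 0.1 RPKM went into each logarithm, so that changes of genes with low values are understated.

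A gene passed the test at a Benjamini-Hochberg adjusted p under 0.05 in limma and was called if its log2 fold change was also over 1 or under -1. On the deposited RPKM, 21.9% of all genes tested passed as higher in AdVEGF mice and 2.23% as lower, while 13% were called higher and 1.54% lower. After median-ratio scaling, 12.7% passed as higher and 10.3% as lower, while 7.77% were called higher and 3.14% lower. Of the 10 iron genes, Hamp, Hamp2 and Trf passed and were called higher on the deposited RPKM and none passed as lower in limma, also none by unadjusted p or with voom. After median-ratio scaling only Hamp passed as higher and was called, and Hfe2 and Neo1 passed as lower. The 10 genes shared no direction after median-ratio scaling.

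Hamp (NM_032541, mm9 chromosome 7, 31727388 to 31729036, minus strand) encodes hepcidin, the ligand of ferroportin. Its RPKM was 714, 684, 519, 988 and 902 in AdCMV replicates 1 to 5 and 2786, 3871, 3183, 2021 and 2171 in AdVEGF replicates 1 to 5. Each of the 5 AdVEGF mice exceeded each of the 5 AdCMV mice, also after median-ratio scaling. Of all genes tested, 14.3% had every AdVEGF mouse above every AdCMV mouse on the deposited RPKM and 1.29% had every one below; after median-ratio scaling these shares were 10.6% and 7.16%. The mean RPKM was 2806 ± 758 (SD, n = 5) in AdVEGF mice and 761 ± 186 (SD, n = 5) in AdCMV mice. On the log2 scale the change was 1.88 (standard error, SE, 0.26, adjusted p by limma 4.11e-05), and 1.47 (SE 0.32, adjusted p by limma 0.00497) after median-ratio scaling. Between 1592 and 11183 reads lay behind each value, so that counting error was small beside the spread between mice.

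Hamp was also set against the Mup share. Within the AdCMV group, Hamp was lowest in replicate 3 and highest in replicate 4, the mice with the lowest and the highest Mup share. AdCMV replicate 3 and AdVEGF replicates 1 and 2 had close Mup shares, 18.01%, 17.0% and 17.1%, and their Hamp RPKM was 519, 2786 and 3871. AdCMV replicate 5 and AdVEGF replicate 5 had Mup shares of 32.4% and 28.6%, and their Hamp RPKM was 902 and 2171. These mice were set side by side after their values were seen and the comparison carries no test.

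**Figure D2:**
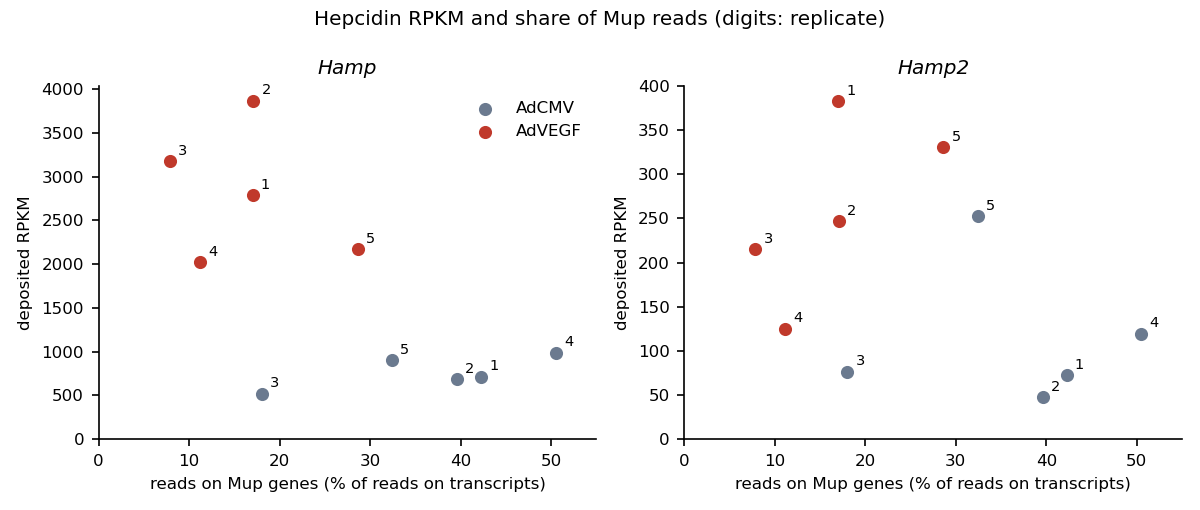
Deposited RPKM of Hamp and Hamp2 in each mouse against the share of its reads on Mup transcripts; points are mice, digits are replicate numbers and colours are the groups. AdCMV replicate 3, with a Mup share like that of AdVEGF replicates 1 and 2, had the lowest Hamp RPKM of the 10 mice.

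Hamp2 (NM_183257, mm9 chromosome 7, 31707391 to 31709200, minus strand), the second hepcidin gene, was measured at a lower level. Its RPKM was 72.6, 47.3, 76.4, 120 and 252.4 in AdCMV replicates 1 to 5 and 383, 247, 215, 125 and 331 in AdVEGF replicates 1 to 5. The groups overlapped: AdCMV replicate 5 lay above 3 of the AdVEGF mice, and 2 AdVEGF mice exceeded the whole AdCMV group. The log2 fold change was 1.35 (SE 0.38, adjusted p by limma 0.0167), but 0.94 (SE 0.43, adjusted p by limma 0.139) after median-ratio scaling, so the call was lost with that scaling, except without AdCMV replicate 5 (1.25, adjusted p by limma 0.0405). The longest GENCODE transcripts of Hamp and Hamp2 were identical at 388 of 410 aligned bases (94.6%), with a longest identical stretch of 87 bases. The authors normalized to tags with a unique place in the genome, but whether reads that match both genes entered the RPKM was not stated in the sources used here, and the values of both genes are uncertain to that extent.

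Both genes were also added up, although reads counted for both or left out for matching both would bear on the sum as well. The summed RPKM of Hamp and Hamp2 was 786, 731, 596, 1108 and 1154 in AdCMV replicates 1 to 5 and 3169, 4118, 3399, 2146 and 2502 in AdVEGF replicates 1 to 5. The groups did not overlap, and on the deposited RPKM the sum was 3.50 times as high in AdVEGF mice by the group means. This ratio includes the general shift between the groups. The difference of the means was 2192 RPKM, and 1607 RPKM after median-ratio scaling. In a two-sided exact permutation test over all splits of the mice, p was 0.00794, the smallest this design allows, and 0.0238 after Benjamini-Hochberg adjustment over 3 single values. The share of Hamp2 in the sum was 9.23%, 6.48%, 12.8%, 10.8% and 21.9% in AdCMV replicates 1 to 5 and 12.1%, 6.00%, 6.34%, 5.83% and 13.2% in AdVEGF replicates 1 to 5. The shares overlapped, and their means of 12.2% ± 5.86 (SD, n = 5) and 8.70% ± 3.64 (SD, n = 5) differed by less than the spread (two-sided exact permutation p = 0.286, adjusted 0.429). The difference was -3.54 percentage points, and with single mice left out it ran from -4.98 without AdCMV replicate 2 to -1.13 without AdCMV replicate 5. A difference in share between the groups was thus not detected with 5 mice in each.

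**Figure D3:**
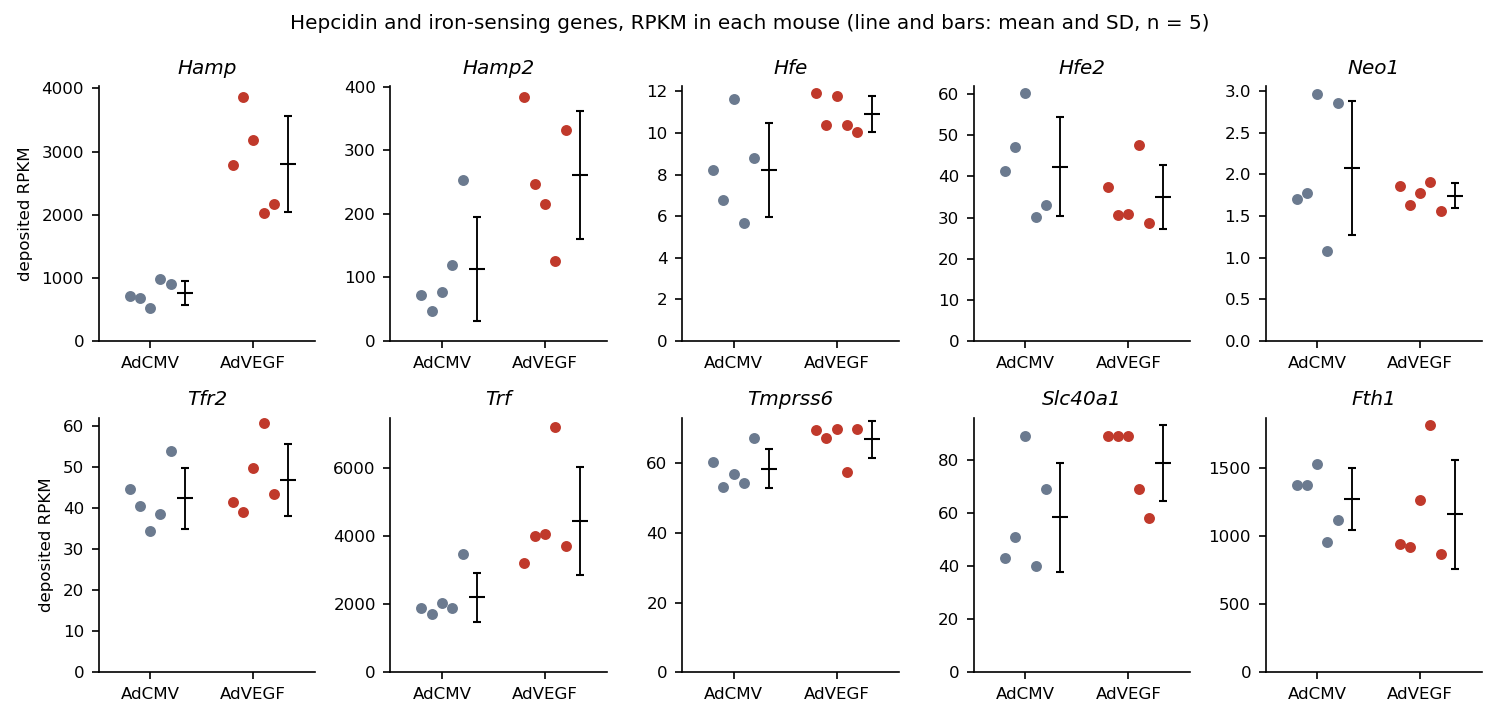
Deposited RPKM of the 10 genes in each mouse, with an axis from 0 for each gene; points are mice in the order of their replicate numbers, and the line and bars to the right are the mean and SD (n = 5). Hamp is the gene of the 10 whose groups are fully apart.

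The receptor complex was measured next. Hfe2 (NM_027126) encodes hemojuvelin, the BMP co-receptor of hepatocytes. Its RPKM was 41.4, 47.1, 60.3, 30.1 and 33.0 in AdCMV replicates 1 to 5 and 37.4, 30.5, 30.9, 47.7 and 28.8 in AdVEGF replicates 1 to 5. The groups overlapped on the deposited RPKM, with 1 AdVEGF mouse below all AdCMV mice, while after median-ratio scaling 4 were below. The log2 fold change of Hfe2 was -0.25 (adjusted p by limma 0.403) and -0.66 (adjusted p by limma 0.0171) after median-ratio scaling. Neo1 (NM_008684), the neogenin receptor that binds hemojuvelin, had an RPKM between 1.08 and 2.97 in AdCMV mice and between 1.56 and 1.91 in AdVEGF mice. Its log2 fold change was -0.16 (adjusted p by limma 0.691) and -0.53 (adjusted p by limma 0.0318) after median-ratio scaling, where all 5 AdVEGF mice were below all AdCMV mice. After median-ratio scaling, Hfe2 did not pass without AdVEGF replicate 3 (-0.59, adjusted p by limma 0.0504). Neo1 passed in 2 of 10 fits that left out 1 mouse after that scaling, those without AdCMV replicate 4 or AdVEGF replicate 4, and in the other fits it lay between -0.55 and -0.45 with an adjusted p by limma from 0.0509 to 0.0713.

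Among the genes for transferrin sensing, Hfe and Tfr2 passed under neither scaling. Hfe (NM_010424) encodes a partner of the transferrin receptors, and its RPKM lay between 5.69 and 11.6 in AdCMV mice and between 10.1 and 11.9 in AdVEGF mice. Its log2 fold change was 0.44 (adjusted p by limma 0.126), close to the median of all genes, and 0.04 (adjusted p by limma 0.819) after median-ratio scaling. Tfr2 (NM_001289507), the transferrin receptor of hepatocytes that senses loaded transferrin, lay between 34.6 and 54.1 RPKM in AdCMV mice and between 39.1 and 60.8 RPKM in AdVEGF mice. Its log2 fold change was 0.14 (adjusted p by limma 0.604), with the opposite sign after median-ratio scaling (-0.26, adjusted p by limma 0.389). The groups overlapped for both genes, and Hfe passed on the deposited RPKM when AdCMV replicate 3 was left out (0.57, adjusted p by limma 0.0208). Tfr2 passed as lower after median-ratio scaling when AdCMV replicate 3 was left out (-0.45, adjusted p by limma 0.0438).

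Trf (NM_133977) encodes transferrin, the iron carrier of plasma. Its RPKM was 1883, 1716, 2026, 1901 and 3473 in AdCMV replicates 1 to 5 and 3215, 3994, 4065, 7188 and 3709 in AdVEGF replicates 1 to 5. In AdVEGF replicate 4 it was far above the other mice, and AdCMV replicate 5 lay above 1 AdVEGF mouse, so that the groups overlapped. On the log2 scale the change was 1.00 (SE 0.28, adjusted p by limma 0.0174) and 0.60 (SE 0.30, adjusted p by limma 0.18) after median-ratio scaling. Without AdVEGF replicate 4 it was 0.81 (adjusted p by limma 0.0323) on the deposited RPKM, below the threshold for a call. It was also below that threshold without AdCMV replicate 1, 2, 3 or 4 (0.96, 0.92, 0.98 and 0.96), and without AdCMV replicate 1 it no longer passed (adjusted p by limma 0.0545).

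Tmprss6 (NM_027902) encodes matriptase-2, the protease that inhibits hepcidin expression. Its RPKM was 60.2, 53.1, 56.8, 54.3 and 67.04 in AdCMV replicates 1 to 5 and 69.5, 67.04, 69.7, 57.4 and 69.8 in AdVEGF replicates 1 to 5. The groups overlapped and the range was narrow, with the lowest AdVEGF value in replicate 4. The log2 fold change was 0.19 on the deposited RPKM and -0.21 after median-ratio scaling (adjusted p by limma 0.404 for both). Its direction therefore depended on the scaling.

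Slc40a1 (NM_016917) encodes ferroportin, the target of hepcidin. Its RPKM was 43.2, 51.0, 88.8, 39.9 and 68.8 in AdCMV replicates 1 to 5 and 88.9, 88.8, 89.0, 69.0 and 58.0 in AdVEGF replicates 1 to 5. The groups overlapped, as AdCMV replicate 3 was level with the highest AdVEGF mice. On the log2 scale the change was 0.48 (adjusted p by limma 0.144) and 0.07 (adjusted p by limma 0.734) after median-ratio scaling, and on the deposited RPKM it passed when AdCMV replicate 3 was left out (0.64, adjusted p by limma 0.0252). Hepcidin acts on the ferroportin protein, which was not measured.

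Fth1 (NM_010239) encodes the heavy chain of ferritin, the iron store of the cell. Its RPKM was 1380, 1376, 1532, 962 and 1123 in AdCMV replicates 1 to 5 and 942, 919, 1269, 1821 and 868 in AdVEGF replicates 1 to 5. In the AdVEGF group 3 mice lay below all AdCMV mice and replicate 4 lay above them. The log2 fold change was -0.17 (adjusted p by limma 0.631) and -0.57 (adjusted p by limma 0.107) after median-ratio scaling; without AdVEGF replicate 4 and after median-ratio scaling it was -0.74 (adjusted p by limma 0.0271). The share of Fth1 in the RPKM of Fth1 plus Ftl1, the light chain, was 24.3% ± 1.81 (SD, n = 5) in AdCMV mice and 25.4% ± 5.89 (SD, n = 5) in AdVEGF mice (two-sided exact permutation p = 0.913, adjusted 0.913). Without AdVEGF replicate 4, at 35.9%, the difference was -1.51 percentage points (exact permutation p = 0.183), and the other AdVEGF mice lay between 21.6% and 23.6%.

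The order of the 10 genes by mean RPKM changed at 1 place. In AdCMV mice the order was Trf, Fth1, Hamp, Hamp2, Slc40a1, Tmprss6, Tfr2, Hfe2, Hfe and Neo1, and in AdVEGF mice Hamp and Fth1 changed places. Hamp had a higher RPKM than Fth1 in 1 of 5 AdCMV mice and in 5 of 5 AdVEGF mice. In AdCMV mice, Slc40a1 (58.3 ± 20.4, SD, n = 5) and Tmprss6 (58.3 ± 5.6, SD, n = 5) did not differ beyond their spread, nor did Tfr2 (42.5 ± 7.43, SD, n = 5) and Hfe2 (42.4 ± 12.1, SD, n = 5).

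**Figure D4:**
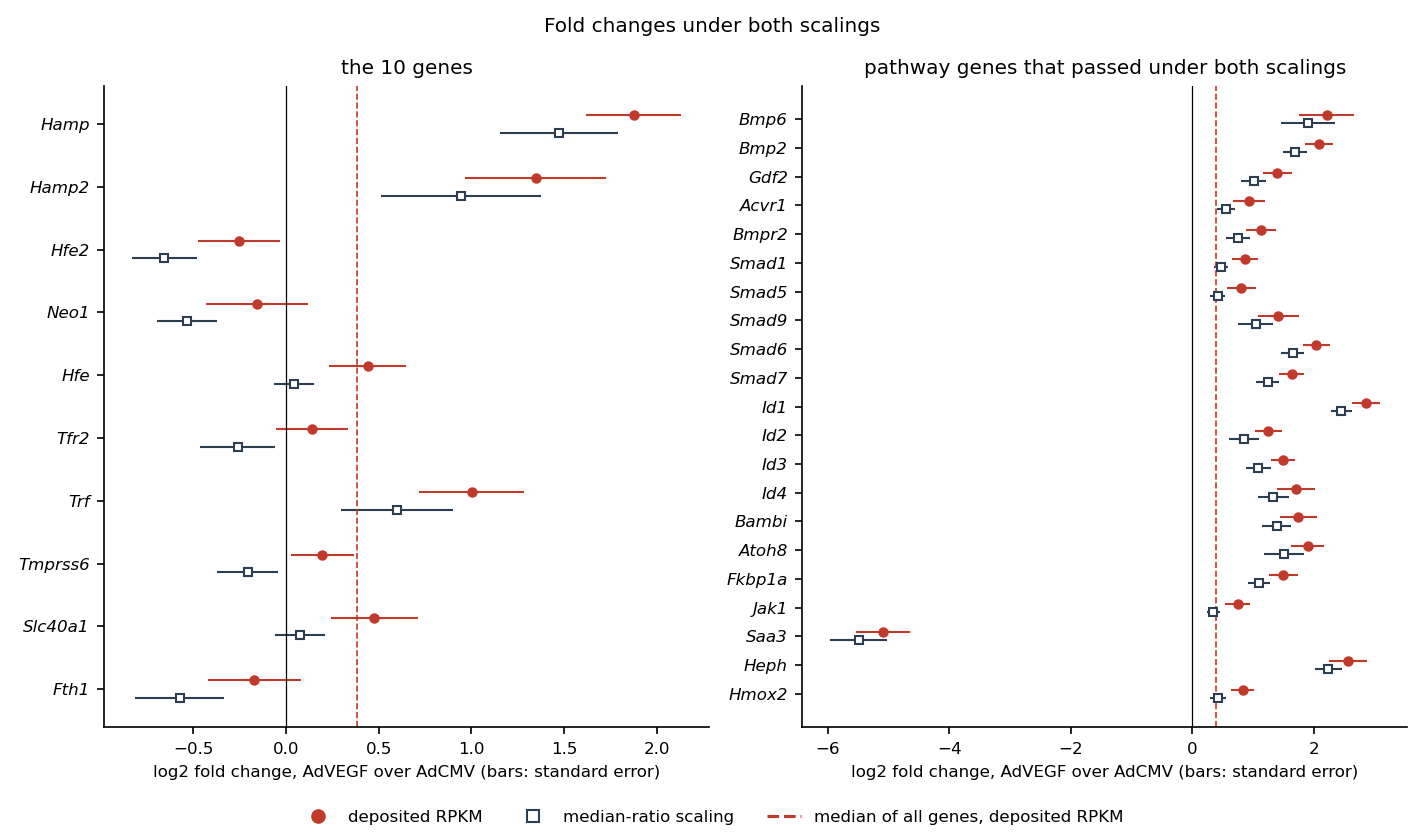
Log2 fold changes, AdVEGF over AdCMV, of the 10 genes and of the other pathway genes that passed under both scalings; filled circles are the deposited RPKM, open squares are median-ratio scaling and bars are standard errors. The dashed line is the median of all genes on the deposited RPKM, 0.38. Tfr2 and Tmprss6 change sign between the scalings, and Saa3 is the pathway gene that fell. Bmp6 and Heph met the filter of a group mean above 0.5 RPKM through the AdVEGF group alone.

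The wider pathway was described with 13 lists that held 108 different tested genes. Of these, 27 passed as higher and 1 as lower on the deposited RPKM, and 20 as higher and 22 as lower after median-ratio scaling. These counts are to be read against the shares of all genes given above for each scaling. The same 20 genes passed as higher and 1 gene, Saa3, as lower under both scalings. The 20 genes include Bmp6 and Heph, which met the filter of a group mean above 0.5 RPKM through the AdVEGF group alone. A share of all genes for both scalings together is not given here.

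Among the BMP and iron ligands, 4 of 6 genes passed as higher on the deposited RPKM and 3 of 6 after median-ratio scaling; the median log2 fold changes were 1.25 and 0.87. Bmp2, a ligand of sinusoidal endothelial cells, had an RPKM of 4.65, 6.74, 6.31, 4.795 and 4.88 in AdCMV replicates 1 to 5 and of 25.4, 29.9, 31.0, 19.1 and 14.98 in AdVEGF replicates 1 to 5. Bmp6, the iron-regulated ligand of the same cells, had an RPKM of 0.288, 0.123, 0.581, 0.133 and 1.01 in AdCMV replicates 1 to 5 and of 3.48, 1.74, 1.41, 1.02 and 2.79 in AdVEGF replicates 1 to 5. The groups were apart for both, although for Bmp6 AdCMV replicate 5 and AdVEGF replicate 4 nearly met and after median-ratio scaling 1 of the 5 AdVEGF mice fell within the AdCMV range. The values of Bmp6 rest on 3 to 14 reads in AdCMV mice and 19 to 47 in AdVEGF mice. Bmp2 rose by 2.08 (SE 0.23), and by 1.68 (SE 0.20) after median-ratio scaling. Bmp6 had a log2 fold change of 2.21 (SE 0.46), and 1.90 (SE 0.44) after median-ratio scaling. The mean of Bmp6 was 0.427 RPKM in AdCMV mice and 2.09 RPKM in AdVEGF mice. Bmp6 thus met the filter, a group mean above 0.5 RPKM, through the AdVEGF group alone, and its test is no support for a rise. It is among the genes counted above as higher. Gdf2, which encodes BMP9, rose by 1.39 (SE 0.24), and by 1.00 (SE 0.20) after median-ratio scaling. Gdf15, the other of the 2 most abundant genes of the list, had a log2 fold change of -0.18 (adjusted p by limma 0.688), and -0.58 (adjusted p by limma 0.247) after median-ratio scaling.

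These ligands were measured in whole tissue, where more cells of a type and more RNA per cell cannot be told apart, nor can fewer cells and less RNA. All 13 endothelial markers rose under both scalings and none was at 0. Their summed RPKM was 69.3, 83.6, 97.1, 52.6 and 97.9 in AdCMV replicates 1 to 5 and 402, 347, 379, 368 and 328 in AdVEGF replicates 1 to 5, with Clec4g the most abundant (mean 38.5 RPKM). The part of these cells in the values of Bmp2, Bmp6 and the BMP target genes was not tested.

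Among the BMP receptors and co-receptors, 3 of 8 tested genes passed as higher on the deposited RPKM, while 2 passed as higher and 3 as lower after median-ratio scaling. The type I receptor gene Acvr1 rose by 0.93 (SE 0.26, adjusted p by limma 0.0164), and by 0.55 (SE 0.15, adjusted p by limma 0.0199) after median-ratio scaling, where it did not pass without AdVEGF replicate 3 (0.52, adjusted p by limma 0.0506). The other type I receptor gene of the list, Bmpr1a, was named after its values were seen. Its log2 fold change was -0.21 (adjusted p by limma 0.526), and -0.61 (adjusted p by limma 0.00577) after median-ratio scaling. On that scale all 5 AdVEGF mice were below all AdCMV mice for Bmpr1a. The type II receptor gene Bmpr2 rose by 1.13 (SE 0.25, adjusted p by limma 0.00395), and by 0.75 (SE 0.19, adjusted p by limma 0.0138) after median-ratio scaling. Acvr2a, with Hfe2 the most abundant of the list, had a log2 fold change of 0.40 (adjusted p by limma 0.201) and 0.01 (adjusted p by limma 0.972) after median-ratio scaling. The median of the list was 0.38 and -0.0012 under the 2 scalings, close to those of all genes, 0.38 and -0.0044.

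The SMAD mediators and BMP target genes rose nearly throughout: 12 of 12 passed as higher on the deposited RPKM and 11 of 12 after median-ratio scaling, with median log2 fold changes of 1.56 and 1.16. Id1, a direct BMP target, had an RPKM of 9.21, 13.5, 13.1, 7.18 and 11.2 in AdCMV replicates 1 to 5 and of 53.0, 75.3, 102, 89.4 and 74.0 in AdVEGF replicates 1 to 5. The groups were far apart, with a log2 fold change of 2.85 (SE 0.23, adjusted p by limma 1.69e-07), and 2.45 (SE 0.18, adjusted p by limma 1.32e-06) after median-ratio scaling. Smad7, which encodes an inhibitory SMAD that feeds back on the pathway, had an RPKM of 2.80, 3.41, 4.41, 4.42 and 5.40 in AdCMV replicates 1 to 5 and of 10.6, 13.3, 13.2, 12.2 and 14.1 in AdVEGF replicates 1 to 5. Atoh8, a BMP target in hepatocytes, had an RPKM of 2.41, 3.28, 1.95, 4.24 and 6.06 in AdCMV replicates 1 to 5 and of 10.2, 15.6, 11.1, 12.04 and 15.2 in AdVEGF replicates 1 to 5. For Smad7 and Atoh8 the groups were apart as well, with log2 fold changes of 1.63 and 1.90, and of 1.24 and 1.5 after median-ratio scaling. On the deposited RPKM the inhibitory Smad6 rose by 2.04, Bambi, which encodes a decoy receptor, by 1.74, Id4 by 1.70, Id3 by 1.49 and Id2 by 1.25. After median-ratio scaling these 5 genes rose by 1.65, 1.38, 1.33, 1.09 and 0.84. The receptor-activated mediators Smad9, Smad1 and Smad5 rose by 1.42, 0.86 and 0.81, and by 1.04, 0.46 and 0.41 after median-ratio scaling. Smad5 passed on the deposited RPKM in 5 of 10 fits that left out 1 mouse; it did not pass without AdCMV replicate 1, 2 or 4 or AdVEGF replicate 1 or 3, where it lay between 0.68 and 0.77. After median-ratio scaling it did not pass without any of the same 5 mice (0.36 to 0.40). On that scale Id2 did not pass without AdCMV replicate 3 or 5 or AdVEGF replicate 2, 3 or 5 (0.71 to 0.81). Smad9 did not pass there without AdCMV replicate 1 or AdVEGF replicate 1, 2 or 3 (0.92 to 0.99). Several of these genes are also expressed by endothelial cells, whose markers rose as given above.

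Of 7 tested inhibitors of hepcidin, 3 passed as higher on the deposited RPKM, and 1 as higher and 2 as lower after median-ratio scaling. Fkbp1a encodes FKBP12, which binds the type I receptor and keeps it inactive, and its RPKM lay between 19.0 and 37.05 in AdCMV mice and between 61.2 and 115 in AdVEGF mice, with no overlap. It rose by 1.497 (SE 0.23, adjusted p by limma 0.000162), and by 1.10 (SE 0.18, adjusted p by limma 0.000695) after median-ratio scaling. Fam132b, which encodes the hepcidin suppressor erythroferrone and was named after its values were seen, lay between 0.113 and 0.449 RPKM in AdCMV mice and between 0.371 and 1.01 RPKM in AdVEGF mice, on 3 to 17 reads per mouse. Its log2 fold change was 1.16 (SE 0.40, adjusted p by limma 0.0441), and 0.85 (adjusted p by limma 0.101) after median-ratio scaling. The mean of Fam132b was 0.25 RPKM in AdCMV mice and 0.672 RPKM in AdVEGF mice. Fam132b thus passed the filter of 0.5 RPKM through the AdVEGF group alone, and its test is no support for a rise. On the deposited RPKM Fam132b passed in 4 of 10 fits that left out 1 mouse, those without AdCMV replicate 2, 3 or 5 or AdVEGF replicate 5, and over all 10 fits it lay between 1.00 and 1.34 with an adjusted p by limma from 0.0312 to 0.118. Fgl1, the most abundant of the list, lay between 90.2 and 148 RPKM in AdCMV mice and between 80.2 and 673 RPKM in AdVEGF mice, the highest in replicate 4. Its log2 fold change was 0.44 (adjusted p by limma 0.454), and 0.03 (adjusted p by limma 0.971) after median-ratio scaling.

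In the IL-6 and STAT3 arm, 1 of 12 tested genes, Jak1, passed as higher under both scalings, and 3 passed as lower after median-ratio scaling. Jak1 rose by 0.74 (adjusted p by limma 0.0157), and by 0.34 (adjusted p by limma 0.0284) after median-ratio scaling, but without AdCMV replicate 1 it did not pass on the deposited RPKM (0.66, adjusted p by limma 0.0545). After median-ratio scaling it did not pass without AdCMV replicate 1 or 2 or AdVEGF replicate 1, 3 or 5 (0.30 to 0.34). Creb3l3 and Cebpb, transcription factors of hepatocytes and the most abundant genes of the list, had log2 fold changes of 0.13 (adjusted p by limma 0.665) and -0.15 (adjusted p by limma 0.631). After median-ratio scaling these were -0.27 (adjusted p by limma 0.369) and -0.55 (adjusted p by limma 0.0499). Socs3, the STAT3 target that was named after its values were seen, lay between 1.52 and 6.14 RPKM in AdCMV mice and between 1.78 and 3.84 RPKM in AdVEGF mice. The median log2 fold change of the list was 0.11, and -0.29 after median-ratio scaling, below that of all genes.

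Of 15 acute phase genes, 1 passed as higher and 1 as lower on the deposited RPKM, and 2 as lower and none as higher after median-ratio scaling, also none by unadjusted p. With voom, which was run on recovered reads with the library totals and without median-ratio scaling, 4 passed as higher. Saa3, a serum amyloid gene, had an RPKM of 473, 934, 672, 223 and 197 in AdCMV replicates 1 to 5 and of 13.6, 15.1, 7.83, 29.3 and 5.66 in AdVEGF replicates 1 to 5. All AdVEGF mice lay below all AdCMV mice, and Saa3 fell by 5.10 on the log2 scale (SE 0.44, adjusted p by limma 3.34e-07), and by 5.50 (SE 0.47, adjusted p by limma 4.5e-06) after median-ratio scaling. The median of the list was 0.28, and -0.12 after median-ratio scaling.

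AdVEGF replicate 4 stood apart in the acute phase genes. It had the highest RPKM of the 10 mice for 14 of the 15 genes, all but Saa3. Saa1 was 86.8, 146, 30.3, 4298 and 48.5 RPKM in AdVEGF replicates 1 to 5 and between 212 and 389 RPKM in AdCMV mice, and Lcn2 was 9.06, 36.8, 10.8, 1599 and 16.4 RPKM against 28.4 to 68.0 RPKM. For Saa1, 4 AdVEGF mice were below all AdCMV mice and replicate 4 was above them. The most abundant genes of the list, Hp for haptoglobin and Hpx for hemopexin, reached 7756 and 10729 RPKM in this mouse, against at most 2667 and 5113 RPKM in the other AdVEGF mice. The same mouse had the highest Trf, Fth1 and Fgl1 of the 10 mice and the lowest Hamp and Hamp2 of its group, 2021 and 125 RPKM. Without it, the log2 fold change of Hamp was 1.98 (adjusted p by limma 2.16e-05), and 1.596 (adjusted p by limma 0.00425) after median-ratio scaling. Its neutrophil markers had the highest summed RPKM of the 10 mice as well, 236 RPKM. This mouse, Saa1 and Lcn2 were singled out after the values were seen, and whether the acute phase RNA of this mouse bore on its hepcidin RNA was not tested.

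**Figure D5:**
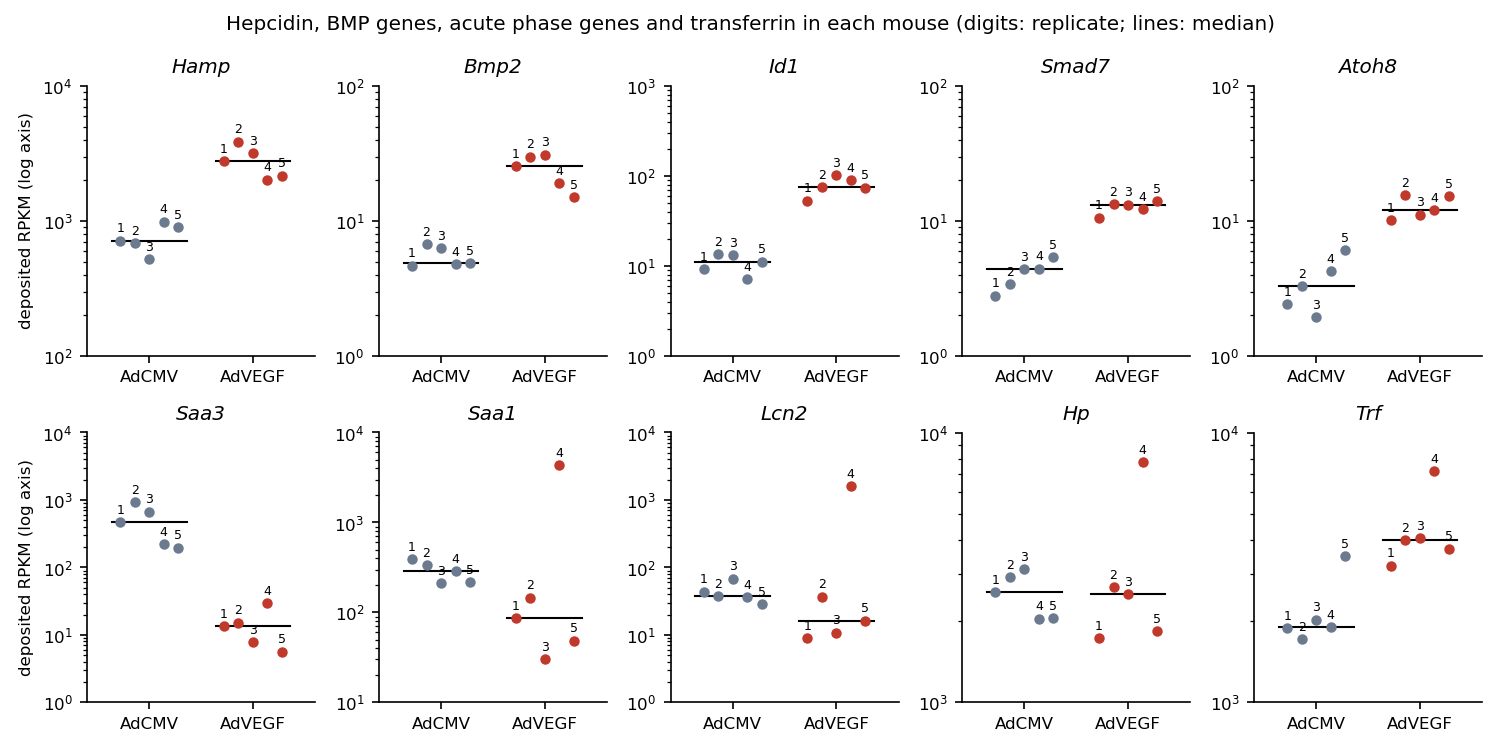
Deposited RPKM on log axes of Hamp and BMP genes (upper row) and of acute phase genes and Trf (lower row) in each mouse; points are mice, digits are replicate numbers and lines are group medians. AdVEGF replicate 4 is at 4298 RPKM for Saa1 and 7188 RPKM for Trf, and at 2021 RPKM for Hamp it is the lowest of its group.

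Among the genes for iron uptake and reduction, 0 of 12 tested passed on the deposited RPKM in limma or with voom (1 at an unadjusted p under 0.05), and 3 passed as lower after median-ratio scaling. Steap4, a metalloreductase and the most abundant of the list, had a log2 fold change of -0.43 (adjusted p by limma 0.194) and -0.83 (adjusted p by limma 0.00353) after median-ratio scaling. Lrp1, which takes up heme bound to hemopexin, had 0.31 (adjusted p by limma 0.399) and -0.09 (adjusted p by limma 0.839), with a change of sign. In the transferrin list, B2m, the partner of HFE, had -0.47 (adjusted p by limma 0.146) and -0.88 (adjusted p by limma 0.0188) under the 2 scalings; 1 of its 5 genes, Trf, passed as higher on the deposited RPKM, and 2 passed as lower after median-ratio scaling.

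Of 6 tested genes for iron export and plasma iron, 2 passed as higher on the deposited RPKM and 1, Heph, also after median-ratio scaling. Heph encodes hephaestin, a ferroxidase that works with ferroportin. Its RPKM was 0.209, 0.256, 0.383, 0.16 and 0.262 in AdCMV replicates 1 to 5 and 2.11, 2.59, 2.04, 1.3 and 1.92 in AdVEGF replicates 1 to 5. The groups were apart, with a log2 fold change of 2.56 (SE 0.31, adjusted p by limma 1.05e-05). After median-ratio scaling it was 2.24 (SE 0.23, adjusted p by limma 1.61e-05). The mean of Heph was 0.254 RPKM in AdCMV mice and 1.99 RPKM in AdVEGF mice. Heph thus passed the filter of 0.5 RPKM through the AdVEGF group alone, and its test is no support for a rise. The AdCMV values rest on 7 to 16 reads and the AdVEGF values on 49 to 89. Hpx had a log2 fold change of 0.80 (adjusted p by limma 0.0695) and 0.40 (adjusted p by limma 0.416) after median-ratio scaling.

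None of the 5 tested storage and chaperone genes passed in limma under either scaling, while 2 were higher on the deposited RPKM and 2 lower after median-ratio scaling at an unadjusted p under 0.05, and 1 passed as higher with voom. None of the 3 iron regulatory proteins passed on the deposited RPKM in limma, also none by unadjusted p or with voom, and 1, Ireb2, passed as lower after median-ratio scaling. Ftl1, the ferritin light chain, had a log2 fold change of -0.24 (adjusted p by limma 0.505) and -0.64 (adjusted p by limma 0.0836) after median-ratio scaling, and all 5 AdVEGF mice were then below all AdCMV mice. Aco1, the iron regulatory protein that doubles as cytosolic aconitase, had 0.12 (adjusted p by limma 0.695) and, with the opposite sign, -0.28 (adjusted p by limma 0.0914). Ireb2, its relative, had -0.11 (adjusted p by limma 0.74) and -0.51 (adjusted p by limma 0.0245). Of the 15 genes for mitochondrial iron and heme synthesis, 0 passed on the deposited RPKM in limma or with voom (1 lower at an unadjusted p under 0.05) and 5 passed as lower after median-ratio scaling. Alas1, which encodes the first enzyme of heme synthesis and is among the 2 most abundant of the list, had 0.04 (adjusted p by limma 0.951) and, with the opposite sign, -0.36 (adjusted p by limma 0.556) after median-ratio scaling. Of 6 tested genes for heme breakdown and export, Hmox2, the constitutive heme oxygenase, passed as higher under both scalings, 2 others passed as lower after median-ratio scaling, and the list medians were -0.01 and -0.42. Hmox2 rose by 0.83 (adjusted p by limma 0.00395), and by 0.42 (adjusted p by limma 0.0372) after median-ratio scaling, where it did not pass without AdCMV replicate 1, 3 or 5 or AdVEGF replicate 1, 2 or 4 (0.35 to 0.44). Blvrb and Abcg2, the most abundant of that list, had -0.32 (adjusted p by limma 0.369) and -0.10 (adjusted p by limma 0.744), and -0.72 (adjusted p by limma 0.0183) and -0.51 (adjusted p by limma 0.0629) after median-ratio scaling. For the uptake, storage, regulatory and heme synthesis lists the median log2 fold changes were 0.29, 0.25, 0.12 and 0.03 on the deposited RPKM, and -0.10, -0.15, -0.28 and -0.38 after median-ratio scaling.

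The tissue held the marker RNAs of liver and of its other cell types, and no marker in the table was at 0 in every mouse. Of 10 hepatocyte markers, 2 passed as higher on the deposited RPKM and 2 as lower after median-ratio scaling; Alb was the most abundant, with a mean of 12191 RPKM. Their summed RPKM was 23962, 27938, 22832, 20169 and 24268 in AdCMV replicates 1 to 5 and 37524, 36959, 44444, 30976 and 36202 in AdVEGF replicates 1 to 5. These sums did not overlap, but after median-ratio scaling they did, at 18703 to 34909 in AdCMV mice and 26021 to 36312 in AdVEGF mice; the part of the hepatocyte share in the hepcidin values was not tested.

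Stellate cell markers passed as higher in 8 of 8 cases on the deposited RPKM and in 7 of 8 after median-ratio scaling. Their summed RPKM was 79.8, 122, 96.8, 82.9 and 121 in AdCMV replicates 1 to 5 and 302, 269, 226, 214 and 146 in AdVEGF replicates 1 to 5, with Dcn the most abundant. Of 10 Kupffer cell markers, 6 passed as higher on the deposited RPKM and 3 after median-ratio scaling, with Cd5l the most abundant. Their summed RPKM was 173, 248, 241, 145 and 308 in AdCMV replicates 1 to 5 and 471, 387, 428, 340 and 303 in AdVEGF replicates 1 to 5. Kupffer cells recycle iron and express ferroportin, and their part in the Slc40a1 values was not tested.

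Of 8 tested T and NK cell markers, 6 passed as lower under both scalings, with Nkg7 the most abundant, and their summed RPKM was 20.7, 19.9, 35.7, 9.36 and 30.7 in AdCMV replicates 1 to 5 and 10.8, 9.55, 14.7, 5.98 and 6.69 in AdVEGF replicates 1 to 5. Of 4 B cell markers, 3 passed as higher on the deposited RPKM and 1 after median-ratio scaling; the sums, led by Cd79b, were 0.669, 1.71, 1.15, 1.36 and 1.52 RPKM in AdCMV replicates 1 to 5 and 7.82, 6.74, 4.91, 6.43 and 2.88 RPKM in AdVEGF replicates 1 to 5. None of 5 tested neutrophil markers passed in limma under either scaling or with voom (1 at an unadjusted p under 0.05), and their sums, led by S100a8, lay between 40.3 and 135 RPKM in AdCMV mice and between 43.6 and 236 RPKM in AdVEGF mice. The 236 RPKM is that of AdVEGF replicate 4, and the other AdVEGF mice reached at most 91.1 RPKM. Of 8 tested erythroid markers, 0 passed on the deposited RPKM in limma (1 at an unadjusted p under 0.05, 1 with voom) and 1, Tfrc, named after its value was seen, passed as lower after median-ratio scaling. Among these, Hba-a1 and Hba-a2 overlap on the genome with nearly the same reads, so that they are not separate measurements. With this pair counted once, erythroid sums, led by Hba-a1, lay between 783.6 and 1744 RPKM in AdCMV mice and between 553 and 1991 RPKM in AdVEGF mice, and the groups overlapped. Of 4 tested cholangiocyte markers, 2 passed as higher on the deposited RPKM and 1, Spp1, after median-ratio scaling; Spp1 made up most of the sums, which were 40.4, 53.6, 52.0, 24.2 and 38.9 RPKM in AdCMV replicates 1 to 5 and 599, 726, 466, 642 and 281 RPKM in AdVEGF replicates 1 to 5. The part of the cells of these 5 lists in the hepcidin and acute phase values was not tested.

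Likeness to Hamp was described within the groups. Over the 10 mice, after the group means were taken off, the 5 genes with the highest Pearson r with Hamp among 7404 genes with a mean of at least 5 RPKM were H2-Ke6 (0.844), C8b (0.793), Apoa2 (0.785), Pon1 (0.785) and Csrp3 (0.759). On the same measure Atoh8 had 0.571 (rank 46), Hamp2 0.464 (rank 91), Smad7 0.211, Smad6 -0.0845 and Id1 -0.37; these 5 were looked up after the values were seen. The values describe 10 mice from 2 groups, share the libraries and their scaling, and carry no test.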

How the data were processed

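Liver RNA of 10 mice was sequenced, and per the labels each library is a separate mouse. The authors mapped the reads with TopHat and deposited RPKM values per RefSeq transcript; the submitters' processing notes name TopHat, HOMER and mm9. The deposited table also holds the authors' own comparison (a log fold change and an FDR), which was not used. Reads were recovered from the RPKM steps, and 3 reads on 1 kb are 0.222 to 0.536 RPKM. At least 99.96% of values, those of 0 included, lay within 0.1 reads plus an allowance for rounding of a whole number. The transcripts together held 2.31% to 13.9% more reads than were mapped. The cause of this excess was not tested. Over the 20 pairs of libraries within a group, the chi-square of a gene against counting noise had a median of 1.67 to 29.6 and a mean of 12.7 to 227. The 5 transcripts without a symbol (at most 0.00534% of reads) were left out.

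Tested genes had a group mean above 0.5 RPKM in AdVEGF or AdCMV mice. The test used log2(RPKM + 0.1) in limma 3.58.1 (R 4.3.3; lmFit, eBayes with trend) and Benjamini-Hochberg adjustment over all genes, before and after median-ratio scaling. Single values had two-sided exact permutation tests (Python 3.11.15, numpy 2.4.6). Promoters and transcripts were aligned with biopython 1.88. The steps were tested on simulated data. Members and lists were chosen with earlier results of these data known. Named genes were the members, list genes that passed in the same direction under both scalings, the 2 most abundant of each list, the 5 most like Hamp, and of each marker list the most abundant; others are said to have been named after their values were seen. A gene that this rule names is not reported here. Alternatives were other scalings, pseudocounts, filters, voom, 1 transcript per symbol, a block for equal replicate numbers, and the omission of single mice. Erythroferrone, F4/80 and protein 4.2 were analysed under the symbols Fam132b, Adgre1 and Epb42. Ftl2, Flvcr1, Flvcr2, Ahsp and Ly6g were not analysed here.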

Additional observations from a re-analysis of the deposited data

Results flagged for a closer look

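Among 65 reported quantities in 2 groups each, 14 of 130 groups held a mouse far from the other 4 by Dixon's criterion, where chance gives about 1 in 20. In 9 of these it was AdVEGF replicate 4. Its Trf was 7188 RPKM with the next mouse at 4065 RPKM, its Tmprss6 was 57.4 RPKM with the next at 67.04 RPKM, and its share of Fth1 in Fth1 plus Ftl1 was 35.9% with the next at 23.6%. Its Saa1 was 4298 RPKM with the next mouse at 146 RPKM, its Lcn2 was 1599 RPKM with the next at 36.8 RPKM, and its Fgl1 was 673 RPKM with the next at 191 RPKM. Its Hp was 7756 RPKM with the next mouse at 2667 RPKM, its Hpx was 10729 RPKM with the next at 5113 RPKM, and its neutrophil markers summed to 236 RPKM with the next at 91.1 RPKM. In AdCMV replicate 5, Trf was 3473 RPKM with the next mouse at 2026 RPKM, and Gdf2 was 3.26 RPKM with the next at 2.01 RPKM. In AdCMV replicate 3, Smad9 was 2.20 RPKM with the next mouse at 1.23 RPKM, Hmox2 was 22.6 RPKM with the next at 17.7 RPKM, and Steap4 was 105 RPKM with the next at 57.4 RPKM. Genes with related roles are not independent of one another, and Saa1 and Lcn2 were named after their values were seen.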

How the results depend on the processing

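Hamp stayed higher with a limma adjusted p under 0.05 under all 31 alternatives, with log2 fold changes from 1.22 to 1.98. Of 31 single genes, 16 kept their direction and their side of the threshold under every alternative. Hamp2 passed under 18 of 31 (0.72 to 1.70) and Trf under 15 of 31 (0.42 to 1.18). Of the called genes, 1082, 1169 and 985 were higher, and 438, 366 and 558 lower, with median-ratio scaling, upper quartile scaling and library totals without Mup reads, against 1808 higher and 214 lower on the deposited RPKM; the same 3 scalings left 1 of the 10 iron genes called higher in place of 3. With a pseudocount of 1, 954 genes were higher. Leaving out each mouse gave 1425 to 2357 higher, 178 to 225 lower, and 2 to 3 iron genes called higher. Tfr2 turned to -0.26, -0.19 and -0.36 and Tmprss6 to -0.21, -0.13 and -0.31 under the same 3 scalings, and without Mup reads Hfe was -0.059 and Slc40a1 -0.028. Leaving out each mouse, also after median-ratio scaling, which was chosen after seeing the data, gave -0.45 to 0.23 for Tfr2 and -0.34 to 0.25 for Tmprss6. The difference in Fth1 share was 1.11 percentage points, and -1.51 to 2.07 with each mouse left out, lowest without AdVEGF replicate 4. The cause was not tested.

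Mice with the same replicate number did not pair (correlation of deviations across genes 0.0357, 0.109, 0.00763, 0.096 and 0.291; not every mouse correlated best with its own number). With the replicate block, genes called higher numbered 1933 and genes called lower 256; with the block and median-ratio scaling 1081 were higher and 475 lower, 1 iron gene was called higher, and Tfr2 and Tmprss6 were at -0.26 and -0.21. The summed Hamp and Hamp2 difference of 2192 RPKM had an exact sign-flip p of 0.0625 over the 5 pairs, the smallest 5 pairs allow. Shares do not change with scaling. Depth limits Bmp6, Id4, Heph, Fam132b and Cd79b, which had under 20 reads in each AdCMV mouse.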
